A study of Mus musculus with 6 samples.

Results

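The 10 genes described here encode secreted inflammatory signals: the interleukin-1 agonists Il1a and Il1b and their antagonist Il1rn, the cytokines Il6, Tnf and Il10, the epithelial alarm cytokines Il33 and Tslp, and the colony stimulating factors Csf2 and Csf3. They were taken by name: each probe set whose only gene symbol in the array annotation was one of these 10 was used. This gave 12 probe sets among the 45037 on the array that are not controls, and 10 of the 18193 genes tested. Il1rn had 3 probe sets and each other gene 1.

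RNA came from lung cells of female mice aged 4 months on a mixed Bl6/129 background. One group of 3 arrays was labelled Bmi1 wild-type and the other group of 3 Bmi1 mutant, with the genotype given as Bmi1 null. Lungs were dissociated with dispase and collagenase, and live cells lacking CD31 and CD45, surface proteins of endothelial and blood cells, were sorted and used without culture. The Bmi1 protein is part of Polycomb repressive complex 1, a chromatin regulator that helps to keep developmental genes silent. The titles call the 3 arrays of each group biological replicates. The labels do not say which part of Bmi1 is missing, nor whether an array holds 1 mouse or a pool. The p values therefore measure only the spread between these samples.

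As background, Il1a and Il1b bind the receptor Il1r1, which pairs with Il1rap and signals through Myd88 and NF-kB, and Il1rn occupies the same receptor without signalling. Tnf also acts largely through NF-kB, Il6 acts through Il6st and STAT3, and Il10 uses STAT3 to restrain inflammatory cytokine production. Il33 and Tslp are known as epithelial and stromal signals to type 2 immune cells, Csf2 is needed in lung for alveolar macrophages to mature, and Csf3 drives the production of neutrophils.

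Promoters of inflammatory cytokine genes are known to carry sites for NF-kB, AP-1 and C/EBP factors, so the 250 bases before the RefSeq start site are printed for 4 of them: Il6, the only one of the 10 whose genotypes did not overlap, Il1rn and Il1b from the interleukin-1 group, and Tnf, which lay the other way from Il6. Capitals mark matches, on either strand, to an AP-1 motif (TGANTCA), an NF-kB motif (GGG, any 2 bases, then TTTCC or TTCCC), a C/EBP motif (TTNNGNAA) and a TATA box (TATAAA).
Il6 (GRCm38.p6, chr5:30012864-30013113, plus strand): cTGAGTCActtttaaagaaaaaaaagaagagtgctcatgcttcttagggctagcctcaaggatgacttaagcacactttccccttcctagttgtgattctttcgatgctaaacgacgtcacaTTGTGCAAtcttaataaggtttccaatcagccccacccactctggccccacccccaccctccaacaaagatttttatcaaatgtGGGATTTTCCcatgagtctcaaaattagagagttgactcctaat
Il1rn (GRCm38.p6, chr2:24345121-24345370, plus strand): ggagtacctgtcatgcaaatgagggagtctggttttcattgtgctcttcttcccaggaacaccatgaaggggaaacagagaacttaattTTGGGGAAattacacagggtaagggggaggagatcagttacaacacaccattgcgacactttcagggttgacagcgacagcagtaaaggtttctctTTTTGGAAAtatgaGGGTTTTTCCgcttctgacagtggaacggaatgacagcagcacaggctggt
Il1b (GRCm38.p6, chr2:129371140-129371389, minus strand): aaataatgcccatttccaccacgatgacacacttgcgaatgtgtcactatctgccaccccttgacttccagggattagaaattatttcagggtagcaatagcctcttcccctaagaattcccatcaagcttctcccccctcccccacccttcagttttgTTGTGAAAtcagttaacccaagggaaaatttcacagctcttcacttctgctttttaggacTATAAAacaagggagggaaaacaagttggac
Tnf (GRCm38.p6, chr17:35202008-35202257, minus strand): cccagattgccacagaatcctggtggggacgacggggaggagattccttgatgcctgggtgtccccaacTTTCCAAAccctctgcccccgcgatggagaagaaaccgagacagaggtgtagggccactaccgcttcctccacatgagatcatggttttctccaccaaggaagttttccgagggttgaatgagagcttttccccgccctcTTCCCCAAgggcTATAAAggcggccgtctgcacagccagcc

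The Il6 window held an AP-1 match starting 249 bases before the start site, a C/EBP match at 128 and an NF-kB match at 44, read as GGGATTTTCC. The NF-kB match of Il1rn, GGGTTTTTCC, lay 51 bases before the start site of the window shown, which is 1 of 3 start sites that RefSeq lists for this gene. The window shown is the only one of the 3 with an NF-kB match. The Il1rn window at chr2:24336610-24336859 held 1 AP-1 match and no match to the other motifs. That at chr2:24345041-24345290 held 1 C/EBP match and no match to the other motifs. The windows of Il1b and Tnf held C/EBP and TATA box matches, the latter at 31 and 29 bases. Of the 10 genes, 7 had a promoter in the table, with 10 start sites in all, and Il10, Tslp and Csf3 had none there. AP-1 matches lay in the promoters of 3 of the 7 genes (Il1a, Il1rn and Il6), against 6.75% of the 32851 promoter windows in the table. NF-kB matches lay in 2 of the 7 (Il1rn and Il6), against 2.82% of all windows. C/EBP matches lay in 7 of the 7, against 36.8%, and TATA box matches in 4 of the 7 (Il1a, Il1b, Il33 and Tnf), against 12.4%. None of the matches to one motif overlapped a match to another. A gene with several start sites had more than 1 window in which to hold a match. A match describes the letters of the window only.

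The Bmi1 signal was not lower in the group labelled mutant. In its probe set with the highest mean it was 996, 980 and 1164 in wild type and 1276, 1498 and 1565 in mutant, a log2 difference of 0.46 (adjusted p = 0.282), and a probe outside the missing part checks nothing. Each direction below therefore rests on the labels. Ptprc, which encodes CD45, gave signals of 6639 to 8507 in wild type and 5048 to 6708 in mutant, and Pecam1, which encodes CD31, 1907 to 2829 and 2691 to 3185, so RNA of the cell types that the sort was meant to remove was present in both groups. The deposited signals are linear, and the arrays had been scaled to a common trimmed mean, with medians between 97.4 and 114. Log2 signals correlated at 0.962 to 0.974 between arrays of the same genotype and at 0.952 to 0.968 between arrays of different genotypes.

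None of the 10 genes passed the test between genotypes. Their adjusted p values ran from 0.198 for Il6 to 0.946 for Tslp (limma over all genes, Benjamini-Hochberg adjustment, called under 0.05), so 0 were called higher, against 0.412% of all genes, and 0 lower, against 0.511%. At an unadjusted p under 0.05 there was 1 of 10, Il6, against 14.5% of all genes. Among the probe sets, 0 of the 12 were called, against 0.404% of all probe sets, and 1 had an unadjusted p under 0.05. Of the 10, 7 lay above 0, against 50.7% of all genes, and the median log2 difference of the 10 was 0.18 against 0.0059 for all genes. Differences are mutant minus wild type on the scale log2(signal + 16), where 1 is a doubling and the fold of a dim gene is understated.

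Il6, a cytokine that induces the acute phase response, had the smallest p of the 10 genes. Its signal was 1270, 555 and 874 in wild type and 1743, 2979 and 1565 in mutant, in the order of replicates 1, 2 and 3, which holds for all values given this way. Every mutant array lay above every wild-type array, and mutant replicate 2 lay above the other two. The mean was 900 ± 358 in wild type and 2096 ± 771 in mutant (SD, n = 3 each), a ratio of means of 2.33. The log2 difference was 1.22 ± 0.37 (SE, 95% interval 0.36 to 2.09, unadjusted p = 0.0125, adjusted p = 0.198). By the exact permutation test over arrays, two-sided, p was 0.1, the smallest that 3 against 3 can give. Il6 was thus 1 of 10 genes whose genotypes did not overlap, against 20.5% of all genes. With any 1 array left out, the log2 difference of Il6 stayed between 0.92, when wild-type replicate 2 was omitted, and 1.51, when wild-type replicate 1 was, with adjusted p from 0.153 to 0.418. Whether a different number of cells of a type or a different amount of RNA per cell stands behind a difference cannot be told apart in these bulk samples.

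The genes whose signals followed Il6 most closely over the 6 arrays were Adamts4, a protease that cleaves proteoglycans, and C1qa, a subunit of complement C1q. Pearson's r of log2 values was 0.994 for Adamts4 and 0.991 for C1qa, the highest among 11490 genes with a mean signal of at least 100, a description in which all points share the same 6 arrays. Adamts4 was 764, 292 and 416 in wild type and 994, 2127 and 888 in mutant, again highest in mutant replicate 2. Both genes were picked for following Il6, so a shared highest array adds no evidence. C1qa was 320, 101 and 155 in wild type and 405, 1051 and 416 in mutant. Neither passed the test (adjusted p = 0.220 and 0.209).

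**Figure D1:**
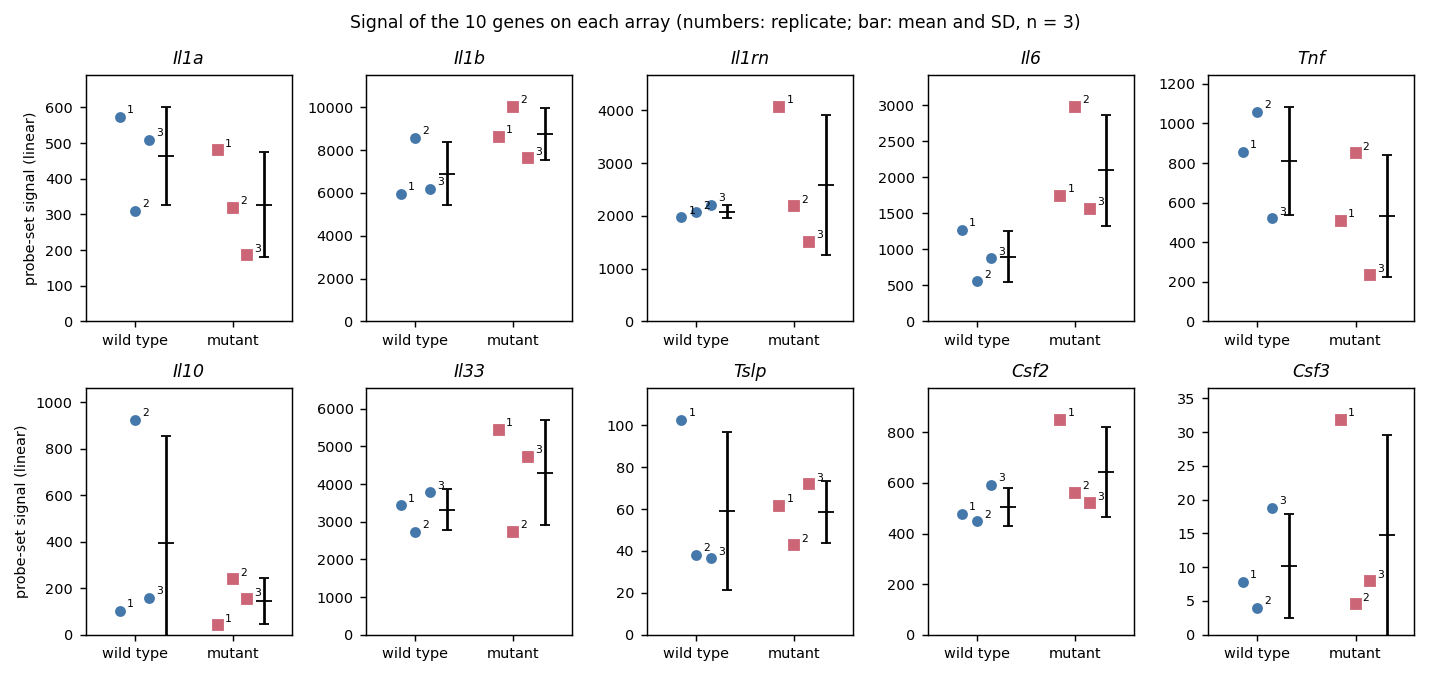
Linear probe-set signal (y axis, from 0, a separate scale for each panel) of the 10 genes on each array, with wild-type arrays as circles and mutant arrays as squares, numbered by replicate. The bar beside each group is its mean and SD (n = 3), cut at 0 where the SD exceeds the mean. Il6 is the panel in which the mutant arrays, from 1565 to 2979, all lie above the wild-type arrays, from 555 to 1270. For Il1rn the probe set with the highest mean is shown.

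The interleukin-1 agonists lay in opposite directions, and neither was separated by genotype. Il1b, the agonist that caspase 1 matures, was 5965, 8582 and 6183 in wild type and 8621, 10029 and 7627 in mutant. Wild-type replicate 2 overlapped the mutant range. The log2 difference of Il1b was 0.35 ± 0.21 (SE, 95% interval -0.14 to 0.85, adjusted p = 0.509). Il1a, the agonist that is also active in its precursor form, was 575, 310 and 509 in wild type and 479, 318 and 186 in mutant. Its groups overlapped, with mutant replicate 3 the lowest of the 6 arrays. The log2 difference of Il1a was -0.53 ± 0.38 (SE, 95% interval -1.42 to 0.36, adjusted p = 0.585), with -0.84 when mutant replicate 1 and -0.20 when mutant replicate 3 was left out.

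Il1rn, the receptor antagonist, was even across the wild-type arrays and uneven across the mutant arrays in all 3 of its probe sets. The probe set with the highest mean, 1451798_at, read 1973, 2066 and 2214 in wild type and 4071, 2181 and 1511 in mutant. The probe set 1423017_a_at read 1296, 1406 and 1224 in wild type and 2766, 2073 and 968 in mutant. The probe set 1425663_at read 944, 1134 and 1178 in wild type and 2237, 1594 and 676 in mutant. In each of them mutant replicate 1 was the highest of the 6 arrays and mutant replicate 3 the lowest. The highest array exceeded the lowest by 1.12 to 1.25 times within wild type and by 2.69 to 3.31 times within mutant. The log2 differences of the 3 probe sets were 0.19, 0.44 and 0.31, with adjusted p of 0.874, 0.686 and 0.815 over all probe sets. The gene value, from 1451798_at, was 0.19 (95% interval -0.63 to 1.01, adjusted p = 0.863) and turned to -0.20 without mutant replicate 1, against 0.51 without mutant replicate 3.

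Tnf and Il10 had lower means in mutant, with groups that overlapped. Tnf was 857, 1059 and 520 in wild type and 509, 849 and 234 in mutant, and mutant replicate 2 lay within the wild-type range. For Tnf the log2 difference was -0.72 ± 0.48 (SE, 95% interval -1.85 to 0.42, adjusted p = 0.561). It was -0.24 without mutant replicate 3 and -1.13 without mutant replicate 2. Il10 was 102, 923 and 158 in wild type and 40.6, 239 and 152 in mutant. Wild-type replicate 2 stood far above the other 5 arrays. The log2 difference of Il10 was -0.998 ± 0.87 (SE, 95% interval -3.05 to 1.05, adjusted p = 0.665), and it was -0.095 without wild-type replicate 2. With mutant replicate 1 left out it was -0.37, and with wild-type replicate 1 left out it was -1.59. Its 95% interval is the widest of the 10 genes.

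The epithelial alarm cytokines showed no separation. Il33, which is released from the nuclei of damaged cells, was 3440, 2728 and 3783 in wild type and 5439, 2739 and 4723 in mutant. Mutant replicate 2 lay inside the wild-type range and the other two mutant arrays above it. For Il33 the log2 difference was 0.33 ± 0.29 (SE, 95% interval -0.36 to 1.01, adjusted p = 0.673). It was 0.62 without mutant replicate 2, 0.19 when wild-type replicate 2 was left out and 0.13 when mutant replicate 1 was. Tslp, which acts on dendritic cells and type 2 lymphocytes, was dim, at 102, 38.0 and 36.4 in wild type and 61.6, 42.7 and 71.9 in mutant. Those values lie near or below the arrays' medians. The log2 difference of Tslp was 0.08 (95% interval -0.75 to 0.92, adjusted p = 0.946), and it was below 0 when wild-type replicate 2 (-0.097), wild-type replicate 3 (-0.12) or mutant replicate 3 (-0.042) was left out.

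Of the colony stimulating factors, Csf2 was measured above the arrays' medians and Csf3 was not. Csf2, which encodes the granulocyte-macrophage factor, was 478, 448 and 592 in wild type and 849, 561 and 519 in mutant. Mutant replicate 1 stood above the rest, and the other two mutant arrays lay inside the wild-type range. For Csf2 the log2 difference was 0.31 ± 0.23 (SE, 95% interval -0.24 to 0.87, adjusted p = 0.612), and 0.10 without mutant replicate 1. Csf3, which encodes the granulocyte factor, read 7.81, 4.00 and 18.8 in wild type and 31.8, 4.51 and 7.91 in mutant, below 100 on every array. Its log2 difference of 0.17 (95% interval -0.70 to 1.03, adjusted p = 0.887) was -0.20 without mutant replicate 1.

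**Figure D2:**
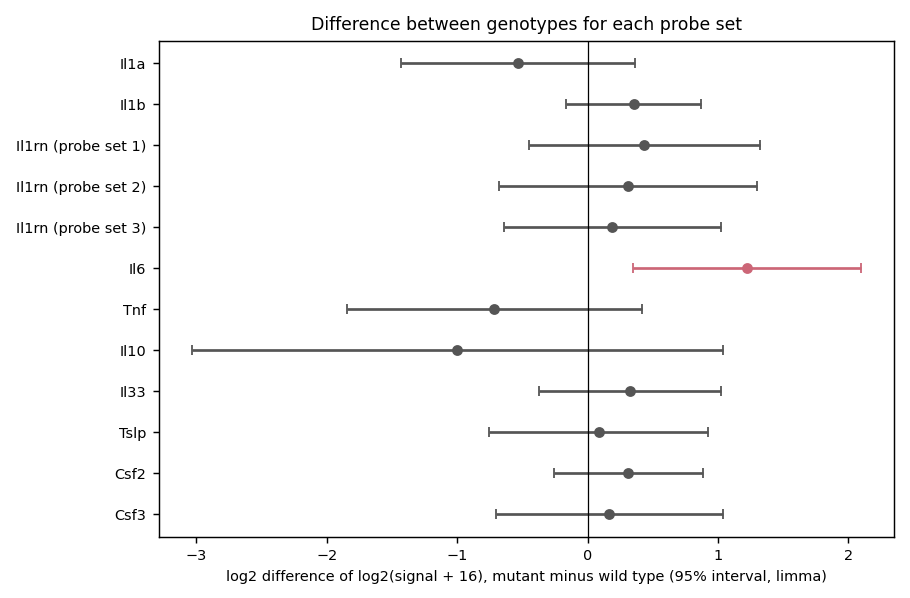
Log2 difference between genotypes (x axis, mutant minus wild type, on log2(signal + 16)) for the 12 probe sets (y axis), with 95% intervals from limma over all probe sets. Probe sets 1, 2 and 3 of Il1rn are 1423017_a_at, 1425663_at and 1451798_at. The interval of Il6, drawn in red because its groups do not overlap, runs from 0.35 to 2.10, and the other 11 cross 0.

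**Figure D3:**
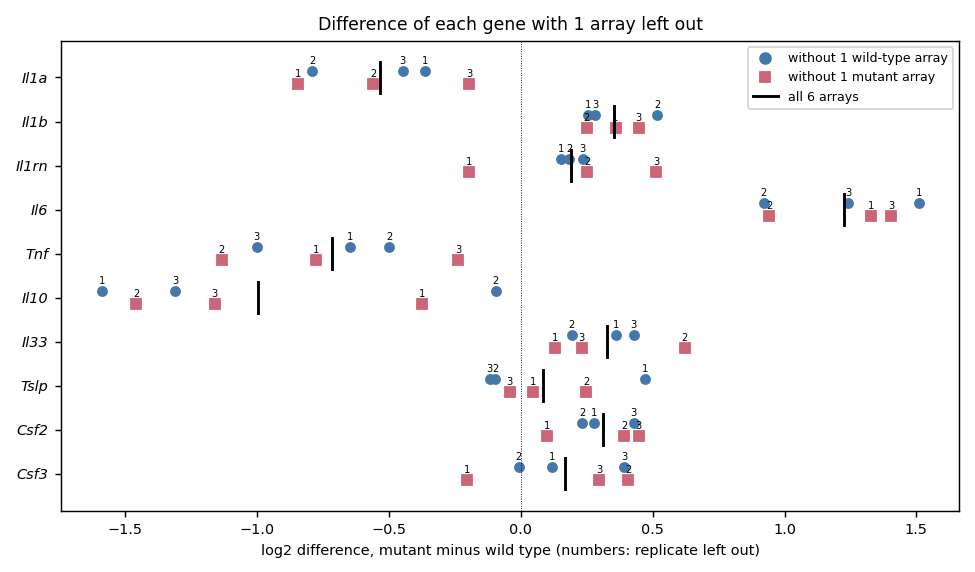
Log2 difference of each gene (x axis, mutant minus wild type) with 1 array left out, as circles for wild-type arrays and squares for mutant arrays, numbered by replicate, beside the value from all 6 arrays (vertical line). Il6 lies between 0.92 and 1.51, while Il1rn, Tslp and Csf3 have values on both sides of 0.

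Receptors of these cytokines were measured for 15 of 16 listed genes, of which 0 were called in either direction. Of the 15, 12 lay above 0, 3 had an unadjusted p under 0.05, and the median log2 difference was 0.12. The smallest p values belonged to both chains of the interleukin-1 receptor. Il1rap was 222, 211 and 219 in wild type and 513, 384 and 299 in mutant, a mean difference of 0.80 ± 0.22 in log2 (SE, adjusted p = 0.167). Il1r1 was 1141, 651 and 779 in wild type and 1873, 1377 and 1241 in mutant, a mean difference of 0.81 ± 0.26 in log2 (SE, adjusted p = 0.233). Each of these values is from the probe set with the highest mean. With the probe sets of a gene averaged, the differences were 0.60 for Il1rap and 0.50 for Il1r1. With the most variable probe set they were 1.20 and 0.81. In the probe sets with the highest mean, all mutant arrays were higher for both genes. The same held for the neutrophil receptor Csf3r, chosen after its values were seen, at 134, 231 and 204 against 356, 699 and 271 (adjusted p = 0.255), which makes 3 of 15 receptors without overlap, against 20.5% of all genes.

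The machinery that matures and relays the signals held 0 called genes. Of 11 measured inflammasome and processing genes, 5 lay above 0 with a median of -0.04. P2rx7, the ATP receptor that triggers Il1b release, was 607, 324 and 610 in wild type and 208, 276 and 289 in mutant (log2 difference -0.91, adjusted p = 0.216). Casp1, which cleaves the precursors of Il1b and Il18, differed by -0.65 (adjusted p = 0.344). Of 17 measured adaptors and kinases 6 lay above 0, with a median of -0.19, and Tyk2 (-0.62, adjusted p = 0.170) and Traf6 (-0.43, adjusted p = 0.309) had the smallest p values. Unadjusted p values under 0.05 numbered 1 among the 11 and 3 among the 17. All mutant arrays were lower for 1 of the 11 and 5 of the 17, against 20.5% of all genes without overlap. They were all higher for 0 in both lists.

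Genes that NF-kB and STAT3 are known to induce or that belong to these pathways were measured for 23 of 24 entries, with 0 called. Of the 23, 3 had an unadjusted p under 0.05 and 18 lay above 0, with a median of 0.20. All mutant arrays were higher for 4 and lower for 1, against 20.5% of all genes without overlap. Cebpd, a transcription factor of the acute phase response, was 2543, 2441 and 2095 in wild type and 4259, 3941 and 3981 in mutant. Its groups stood well apart, with a mean difference of 0.78 ± 0.16 in log2 (SE, adjusted p = 0.0852). Cebpd passed the threshold in 3 of 16 alternative settings. These were an offset of 64 (adjusted p = 0.0393), a filter on dim genes (0.0409) and a trended robust prior (0.0116). It passed in 0 of the 6 fits that left out an array, where adjusted p reached 0.249. Rel, an NF-kB subunit prominent in lymphocytes, lay the other way at 1457, 2771 and 1903 against 953, 1238 and 877 (log2 difference -0.95, adjusted p = 0.181).

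Among cytokines outside the 10 genes, 2 of 31 measured were called lower and 0 higher, with 17 above 0 and a median of 0.12. An unadjusted p under 0.05 was found for 10 of the 31, against 14.5% of all genes. All mutant arrays were higher for 5 and lower for 5, against 20.5% of all genes without overlap. Csf1, among the higher 5, was 1491, 1268 and 1323 in wild type and 4575, 3558 and 2563 in mutant. Its log2 difference was 1.34 (adjusted p = 0.0647), and it was chosen after its values were seen. Ifng, the interferon made by natural killer and T cells, fell from signals of 1582, 1767 and 1210 to 478, 369 and 346, a mean difference of -1.89 ± 0.22 in log2 (SE, adjusted p = 0.0225). Il18, a caspase 1 substrate that induces Ifng, fell from 1888, 2146 and 4190 to 376, 724 and 485, a mean difference of -2.30 ± 0.37 in log2 (SE, adjusted p = 0.0482). The groups of both genes stood far apart. Both calls were lost with any 1 array left out: the adjusted p of Ifng was then 0.0546 to 0.0962 and that of Il18 0.0702 to 0.152. The count over all genes, 75 higher and 93 lower (120 and 88 with median centring of each array), was 1 higher and 1 lower without wild-type replicate 2. Without each of the other 5 arrays it ran from 3 to 35 higher and from 5 to 41 lower.

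**Figure D4:**
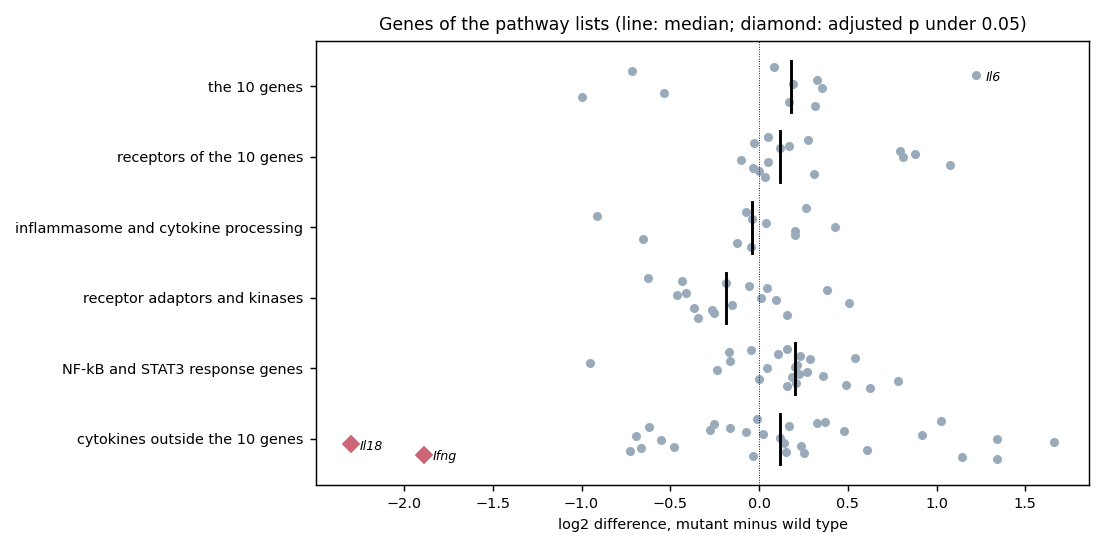
Log2 difference between genotypes (x axis, mutant minus wild type) for the genes of 6 lists (y axis), where a vertical line is the list's median and a diamond a gene with an adjusted p under 0.05. The diamonds are Il18 at -2.30 and Ifng at -1.89, and Il6 stands at 1.22 to the right of the other 9 genes of its row.

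Markers of several cell types moved with genotype in the same arrays. Of 13 measured neutrophil markers 2 rose, 0 fell and 12 lay above 0, with a median of 1.46. Mmp8, a granule collagenase, differed by 1.70 (adjusted p = 0.0243) and Ltf, which encodes lactoferrin, by 1.82 (adjusted p = 0.0324). Both calls held in 1 of the 6 fits that left out an array. Summed over the 13 markers, signals were 22269.9, 29308 and 22921 in wild type and 52138, 64718 and 37871 in mutant, so the groups did not overlap. Among the mutant arrays, replicate 2 was highest in this sum and also in Il1b, Il6, Tnf and Il10, and replicate 3 was lowest in this sum and also in Il1a, Il1b, Il1rn, Il6, Tnf and Csf2, genes that lie on both sides of 0. Of the same 3 mutant arrays, replicate 2 was lowest in Il33, Tslp and Csf3, and replicate 3 was highest in Tslp. Among the wild-type arrays, replicate 2 was highest in this sum and in Il1b, Tnf and Il10. Wild-type replicate 2 was the lowest of its group in Il1a, Il6, Il33, Csf2 and Csf3. Mutant replicate 2 was also the highest mutant array in the sums of lymphocyte markers (6260.2) and of macrophage and monocyte markers (83704). The same held for epithelial markers (121014) and for mast cell and basophil markers (2482). It was the lowest mutant array for fibroblast and smooth muscle markers (48117) and for endothelial markers (21766). None of the 13 neutrophil markers was below 100 on all arrays. Of the 13, all mutant arrays were higher for 8 and lower for 0, against 20.5% of all genes without overlap. The part of neutrophils in the values of Il6, Il1b, Il1rn and Csf3r was not tested.

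Lymphocyte markers fell in 5 of 11 measured genes and rose in 0, with 1 above 0 and a median of -1.57. The 4 with the smallest p were the B cell genes Ms4a1 (-3.40, adjusted p = 0.00314), Cd79b (-1.96, adjusted p = 0.0111) and Cd79a (-2.34, adjusted p = 0.0386) and the natural killer cell receptor Ncr1 (-3.23, adjusted p = 0.0116). Of these calls, that of Ms4a1 held with each array left out in turn, those of Cd79b and Ncr1 in 3 of 6 such fits and that of Cd79a in 1. The summed signal was 10189 to 14885 in wild type and 4958 to 6260.2 in mutant. All mutant arrays were lower for 7 of the 11 markers and higher for 0, against 20.5% of all genes without overlap. Ifng, Rel and the cytokines Tnf and Il10 were lower on average in the same arrays, and the part of lymphocytes in those values was not tested.

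Macrophage and monocyte markers overlapped in sum (68191 to 77914 in wild type and 68944 to 83704 in mutant), with 0 of 14 called higher and 1 lower, 7 above 0 and a median of 0.017. The called gene was Siglecf, a surface lectin of alveolar macrophages and eosinophils, which fell by 2.19 on the log2 scale (adjusted p = 0.0354), a call held in 1 of 6 fits that left out an array. Of the 14, 2 had mutant arrays that were all higher, Msr1 (1.35, adjusted p = 0.0516) and Fn1 (0.97, adjusted p = 0.146). The mutant arrays were all lower for 3, Siglecf, Itgax (-0.99, adjusted p = 0.0763) and Mertk (-0.76, adjusted p = 0.0952). Apart from Siglecf, these genes were selected with their values already known. Among all genes, 20.5% had genotypes without overlap in either direction. Bright genes weigh most in a sum of linear signals. Among these markers Lyz2 and Chil3 had wild-type means of 17380 and 16549, against 3799 for Siglecf. Fibroblast and smooth muscle markers summed to 19599 to 38898 in wild type and 48117 to 49601 in mutant, and 14 of 14 lay above 0, with a median of 0.78. The collagen gene Col1a1 was the 1 called (1.37, adjusted p = 0.0482), and in 0 of 6 fits that left out an array. Fibroblasts are a known source of Il6, and their part in its values was not tested. Endothelial markers overlapped in sum (18109 to 30008 and 21766 to 25454) with 0 of 10 called, 5 above 0 and a median of -0.0017. Of these, 1 had an unadjusted p under 0.05, Emcn (0.82, adjusted p = 0.273), followed by Kdr (0.64, adjusted p = 0.402).

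Epithelial markers, which bear on Il33 and Tslp, summed to 101441 to 108113 in wild type and 112557 to 121014 in mutant, so every mutant array was higher. Of the 15, 0 were called, 2 had an unadjusted p under 0.05 and 13 lay above 0, with a median of 0.15, and the part of these cells in the values of Il33 and Tslp was not tested. Pdpn of alveolar type 1 cells (1.51, adjusted p = 0.0530) and Foxj1 of ciliated cells (0.68, adjusted p = 0.204) had the smallest p values. Mast cell and basophil markers, of cells that carry receptors for Il33, overlapped in sum (2040.2 to 2610.1 and 1780.1 to 2482), and 0 of 10 were called, with 3 at an unadjusted p under 0.05. Among them Mcpt8 of basophils, which was below 100 on every array, differed by -1.41 (adjusted p = 0.170). Tpsb2 of mast cells differed by 1.22 (adjusted p = 0.206). No marker summed here was listed at exactly 0, and 4 of the 10 mast cell and basophil markers were below 100 on all arrays.

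**Figure D5:**
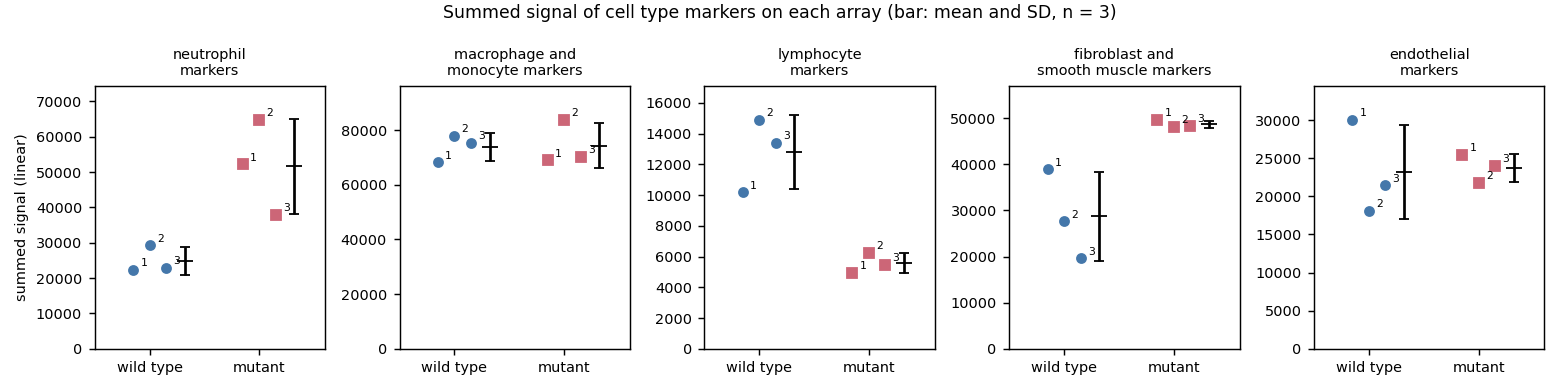
Summed linear signal (y axis, from 0, a separate scale for each panel) of 5 lists of cell type markers on each array, numbered by replicate, with the mean and SD (n = 3) beside each group. The sums of neutrophil and of fibroblast and smooth muscle markers are higher on every mutant array, that of lymphocyte markers is lower on every mutant array, and the other 2 panels overlap.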

How the data were processed

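Signals came from 6 Affymetrix Mouse Genome 430 2.0 arrays, hybridised with cDNA amplified from total RNA, per the labels. The authors deposited linear probe-set intensities. The submitters' processing notes name Affymetrix Expression Console 1.1, and how it summarized probes, corrected background or called detection is not given in the sources used here. Arrays had been scaled to a common trimmed mean before deposit, so a change in total RNA would not show.

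Here 64 of the 45101 probe sets, the controls, were left out, and signals were turned to log2(signal + 16). By the platform annotation 34945 probe sets carried 1 gene symbol, 932 several and 9160 none. The probe set with the highest mean stood for a gene. Genes, and separately all 45037 probe sets, were fitted in R 4.3.3 with limma 3.58.1 (lmFit, eBayes, no covariate), using Benjamini-Hochberg adjustment and a threshold of 0.05. The gene test was tested on simulated data. Precision is limited by the number of arrays. The members and lists were chosen with earlier results of these data known.

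Genes named beyond the 10 follow a rule: Bmi1, Ptprc and Pecam1, up to 4 called genes of a list or the 2 with the smallest p, and the 2 genes most correlated with a gene whose genotypes do not overlap. Csf3r, Csf1, Msr1, Fn1, Itgax and Mertk lie outside it and were chosen after their values were seen. Promoters are RefSeq's for GRCm38.p6, trimmed to the bases before the start site. A planned comparison of protein sequences was not made. The alternatives changed the normalization (quantile, median centring), the offset (1 or 64), the joining of probe sets and the variance prior, dropped dim genes, weighted arrays, blocked on the replicate number or left out each array. Those for genes outside the 10 were chosen after seeing the data. Plots used matplotlib 3.10.9.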

Additional observations from a re-analysis of the deposited data

How the results depend on the processing

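Under all 16 alternatives 0 of the 10 genes were called in either direction, and Il1a, Il1b, Il6, Tnf, Il10, Il33 and Csf2 kept their direction. Il6 had an unadjusted p under 0.05 in 16 of 16, with log2 differences of 0.92 to 1.51 and adjusted p of 0.0842 to 0.418. With 1 array left out the ranges were -0.20 to 0.51 for Il1rn, -0.12 to 0.47 for Tslp and -0.20 to 0.41 for Csf3, the genes that changed sign. The filter on dim genes removed Tslp and Csf3.

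Over all genes, 75 higher and 93 lower became 120 and 88 with median centring, 12 and 21 when 1 was the offset, 120 and 145 when 64 was, 167 and 178 with the filter on dim genes, and 213 and 225 with a trended robust prior. With 1 array left out they ran from 1 to 35 higher and from 1 to 41 lower. Median centring put the median of all genes at 0.10, and each log2 difference above moves up by about as much.

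The replicate block called 0 genes higher and 0 lower, with 2611 at an unadjusted p under 0.05, and 0 of the 10 genes. Arrays of the same number shared little: their deviations from the group means correlated at 0.073, 0.048 and 0.032, so the labels' numbers were not taken as pairs. The 2 other cytokines called lower were 1 with quantile normalization, 0 with an offset of 1, 0 with the replicate block and 0 to 0 with 1 array left out, where both had unadjusted p values under 0.05. The cause of these changes was not tested. Dim signals limit Csf3 and Tslp, and 3 arrays per genotype limit every interval.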
